A study of Mus musculus with 12 samples.

Results

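Brown preadipocytes that had not been induced to differentiate were compared with mature white adipocytes of the 3T3-L1 line, to see which fat cell genes the uninduced brown cells already expressed at the level of a mature white fat cell and which they lacked. The comparison takes the 3 arrays of each group, 6 of the 12 arrays of the series, as the labels name them, and no measured value was used to choose them. The brown preadipocytes belong to a mouse brown fat cell line that was grown in medium with 10% fetal bovine serum and taken at day 0, 2 days after the cells had become confluent, with no inducing agent. The white adipocytes belong to 3T3-L1, an established mouse line of white-type preadipocytes, grown with 10% fetal calf serum and taken at day 10. From day 0 they had been induced for 3 days with insulin at 1 µg/mL together with 1 µM dexamethasone, a glucocorticoid, and 0.5 mM IBMX, which raises cyclic AMP, and had then received insulin alone for 2 days and plain growth medium after that. The rest of the series, 3 arrays of brown adipocytes at day 8 and 3 of white preadipocytes at day 0, adds to the estimate of spread. The brown adipocytes had been induced for 3 days with 20 nM insulin, 1 nM T3, 125 µM indomethacin, 1 µM dexamethasone and 0.5 mM IBMX, a mixture other than that of the white line, and kept insulin and T3 until day 8. The white preadipocytes had received no inducing agent. The labels do not give the origin or clonality of the brown line, or whether the arrays of a group came from separate cultures, so p-values measure the spread between these samples, which may be technical. Line, stage and exposure to the inducing agents differ together between the groups, and their shares in a difference cannot be told apart.

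White adipocytes store triglyceride in large lipid droplets, release fatty acids when fuel is short and secrete hormones such as adiponectin, whereas brown adipocytes burn fatty acids to make heat through the uncoupling protein of their mitochondria. In both, the nuclear receptor Pparg and the transcription factor Cebpa switch on the genes of fat uptake, synthesis, storage and release, usually after preadipocytes stop dividing and meet hormones that induce them. Preadipocytes are committed to this fate but in most culture systems carry little of the mature fat cell's gene expression before induction.

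Signals are Affymetrix probe set intensities, and each gene is represented by its probe set of highest mean. Differences are log2 differences of signal plus 16, brown preadipocytes minus white adipocytes, with the standard error (SE) and Benjamini-Hochberg adjusted p from limma, and a gene was called where that p was under 0.05. A gene was counted as within 2-fold where the 95% confidence interval of its difference lay wholly between -1 and 1. Of 13745 genes tested, 4840 were higher in brown preadipocytes (35.2%) and 3938 were lower (28.7%), while 6908 lay within 2-fold (50.3%). Every array had been scaled to the same trimmed mean, which hides any difference in total RNA per cell. The signals of spiked-in hybridization controls averaged 3038 to 3128 on the brown preadipocyte arrays and 3845 to 4110 on the white adipocyte arrays, and with arrays scaled to these controls the median of all genes moved up by 0.325, to 6701 genes higher and 2484 lower. The 3′ to 5′ ratio of beta-actin was 1.49 ± 0.0626 in brown preadipocytes and 2.25 ± 0.151 in white adipocytes (SD, n = 3 each, two-sided exact permutation p = 0.1, the smallest this design can give). The ratio of Gapdh was 0.775 ± 0.0296 in brown preadipocytes and 0.828 ± 0.00689 in white adipocytes (exact p = 0.1), and that of pyruvate carboxylase 5.70 ± 0.902 in brown preadipocytes and 7.64 ± 1.83 in white adipocytes (exact p = 0.3). The part of these ratios in the results was not tested.

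The uninduced brown cells carried a broad but uneven share of the fat cell program. Across 7 lists of fat cell function (transcription factors, fatty acid uptake, lipid droplet proteins, lipid synthesis, lipolysis, secreted proteins and insulin action), 134 of 146 listed genes had a probe set and 131 were tested. Of these 131, 89 were lower in brown preadipocytes (67.9%, against 28.7% of all genes tested) and 22 were higher (16.8%, against 35.2%). Another 20 were not called, where 63.9% of all genes tested were called. For 120 of the 131, the 2 ranges of signals were disjoint, against 68.2% of all genes tested. The median difference was -1.09, against 0.05 over all genes tested. A share of 26.7% of the members (35) was lower by at least 4-fold, against 3.53% of all genes tested, and 32.8% (43) lay within 2-fold, against 50.3%. Set against the white adipocyte mean, 21 members were under 10%, 48 lay between 10% and 50%, 55 between 50% and 200%, and 7 were above 200%. On every brown preadipocyte array 117 of the 131 were above the 40th percentile of signal, the level used here to separate low signals. Most members that were lower were thus still measured. Above that percentile on every brown preadipocyte array were also 11259 of all 13745 genes tested. In RNA of whole cultures, fewer cells expressing a gene and less RNA of it per cell cannot be told apart. The 22 higher calls came mostly from insulin action (7, or 35% of the list), transcription factors (5, or 25%) and secreted proteins (4, or 15.4%). None of these shares was above the 35.2% of all genes tested. The 35 genes lower by at least 4-fold came mostly from secreted proteins (9), lipid synthesis (7) and lipolysis (6).

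**Figure D1:**
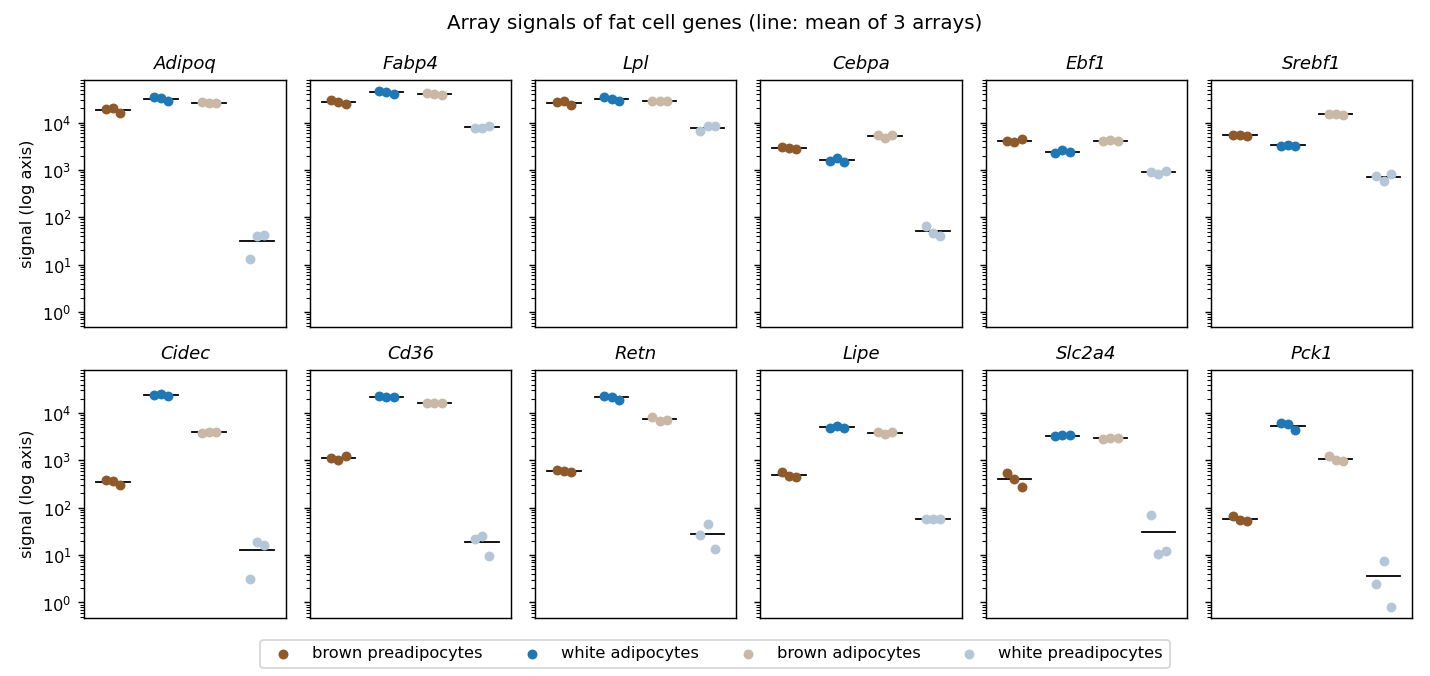
Signal on each array, on a log axis, for 12 fat cell genes in brown preadipocytes, white adipocytes, brown adipocytes and white preadipocytes (3 arrays each, line at the mean). In the upper row brown preadipocytes lie between 58.2% (Adipoq) and 179% (Cebpa) of the white adipocyte mean, and in the lower row they lie below every white adipocyte array, at 1.08% (Pck1) to 9.85% (Lipe) of the white mean in 5 of the 6 genes and slightly above that in Slc2a4.

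Regulators of the program were among the genes already present. Cebpa, which drives terminal fat cell differentiation and insulin sensitivity, had signals of 3108, 2852 and 2789 on the brown preadipocyte arrays and 1551, 1832 and 1495 on the white adipocyte arrays. It was higher in brown preadipocytes by 0.84 (SE 0.132, adjusted p = 0.000246, limma), with no overlap between the groups, and stayed called under every alternative tried. White preadipocytes had 64.7, 46.5 and 41.0, so the Cebpa signal set the uninduced brown cells apart from the uninduced white ones as well. Pparg, the nuclear receptor at the head of the program, had 3080.0, 3379.9 and 3105 in brown preadipocytes and 8757, 8773 and 8147 in white adipocytes, and was lower in brown preadipocytes (-1.42, SE 0.0644, adjusted p = 2.25e-08), again with no overlap. At 37.2% of the white adipocyte mean, Pparg stood well below its mature white level while Cebpa stood above it. Brown adipocytes had 5526, 4741 and 5404 for Cebpa and 9043, 9252 and 8700 for Pparg. Brown preadipocytes thus lay below the mature brown level in both genes.

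Of the 20 transcription factors and coactivators tested, 5 were higher (25%, against 35.2% of all genes tested), 11 were lower (55%, against 28.7%) and 4 were not called. With scaling to the hybridization controls 8 were higher and 9 were lower. The higher ones were Cebpa, Ebf2 (2.97), a factor of brown fat commitment, Ppargc1a (0.84), the coactivator of mitochondrial biogenesis, Ebf1 (0.78) and Srebf1 (0.70), the activator of fatty acid synthesis genes. Ebf2 had signals of 3062, 3173 and 3022 in brown preadipocytes and 358, 376 and 407 in white adipocytes, which did not overlap. The lower ones were led by Klf15 (-2.87, SE 0.147), a factor induced late in differentiation by glucocorticoids, with 401 ± 81.0 in brown preadipocytes and 2989 ± 145 in white adipocytes (SD, n = 3 each). Rxrg, a partner receptor of Pparg, was below the 40th percentile on every brown preadipocyte array and at least 4.32-fold lower than in white adipocytes. Cebpb and Cebpd, which act early in adipogenesis, differed in their calls: Cebpb was lower (-1.62, adjusted p = 5.12e-08) and Cebpd was within 2-fold (0.23, adjusted p = 0.0964). Zfp423, a factor that commits cells to the adipocyte fate, was within 2-fold too (0.18).

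Adiponectin (Adipoq), the most abundant hormone of fat cells, was already strongly expressed. Its signals were 19089, 20791 and 16205 in brown preadipocytes and 34156, 32940 and 29256 in white adipocytes, while white preadipocytes had 13.1, 40.3 and 42.5. The brown preadipocyte mean was 58.2% of the white adipocyte mean. Adipoq had only 1 probe set, so this level could not be compared with that of another. Whether signals this bright still track the amount of RNA was not tested. The difference of -0.78 (SE 0.229, 95% interval -1.30 to -0.27, adjusted p = 0.0119) was called, but its interval ran beyond 2-fold, and the call was lost with quantile normalization (-0.56, adjusted p = 0.0615), with scaling to the hybridization controls (-0.42, adjusted p = 0.134) and with a pseudocount of 1 (adjusted p = 0.0845). The arrays of the groups did not overlap.

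The lipid-binding and uptake genes were divided. Fabp4, the fatty acid chaperone that defines adipocytes, had 30127, 27115 and 25020 in brown preadipocytes and 46516, 43520 and 39941 in white adipocytes, 63.3% of the white mean (-0.66, SE 0.0854, adjusted p = 5.79e-05). Lpl, the lipase that frees fatty acids from circulating lipoproteins, had 27494, 28341 and 22977 in brown preadipocytes and 34736, 30949 and 29214 in white adipocytes and was not called (-0.27, 95% interval -0.53 to -0.01, adjusted p = 0.0652), and its sign turned with scaling to the hybridization controls (0.0976). White preadipocytes were bright too, with means of 8050 for Fabp4 and 7857 for Lpl. In brown preadipocytes both genes lay within 2-fold of white adipocytes by this measure. Cd36, the membrane receptor that brings long-chain fatty acids into fat cells, did not: it had 1138, 1011 and 1249 in brown preadipocytes against 22841, 21834 and 21874 in white adipocytes, or 5.11% of the white mean (-4.28, SE 0.156, adjusted p = 5.07e-09). In this list of 14, 9 were within 2-fold (64.3%, against 50.3% of all genes tested) and 8 were lower (57.1%, against 28.7%). The 2 higher ones were Acsl5 (0.79), which activates fatty acids, and Lrp1 (0.25), and with equal array medians the count higher was 1. Vldlr, a lipoprotein receptor, and Angptl4, an inhibitor of Lpl, joined Cd36 as the members lower by at least 4-fold (-2.59 and -2.06).

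Several of the genes that looked closest to the white level rested on very bright probe sets, and other probe sets of the same genes gave larger differences. Fabp4 had 3 further probe sets, with differences of -2.75, -1.89 and -1.23. Scd1, the desaturase that makes monounsaturated fatty acids, was within 2-fold on the probe set used (-0.60, 20381 ± 1514 in brown preadipocytes and 30919 ± 2033 in white adipocytes), whereas another probe set gave 2331 ± 166 in brown preadipocytes and 18050 ± 315 in white adipocytes, a difference of -2.95 (no test was made on single probe sets). The second probe set of Lpl gave -1.16. Cxcl12, a chemokine of stromal cells, was within 2-fold on the probe set used (0.76) and gave 3.09 on another. Among the 43 fat cell genes within 2-fold, 27 had another probe set that lay above the 40th percentile on all 3 arrays of either group, and in 5 of them (Fabp4, Lpl, Scd1, Cxcl12 and Vamp2) such a probe set differed by more than 2-fold. Of the 35 genes lower by at least 4-fold, 17 had another such probe set, all 25 of these probe sets were lower in brown preadipocytes, and in 16 of the 17 genes at least 1 of them was lower by more than 2-fold. The highest signal on any of the 6 arrays ran from 31279 to 46516, and whether signals near that level still track the amount of RNA was not tested. For Fabp4, Lpl and Scd1 a level within 2-fold of white adipocytes was measured only on the brightest probe set, while each probe set named here gave signals over 100 on all brown preadipocyte arrays. Ebf1 gave 0.54 to 0.78 on its 4 brightest probe sets, all higher in brown preadipocytes and none by more than 2-fold.

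**Figure D2:**
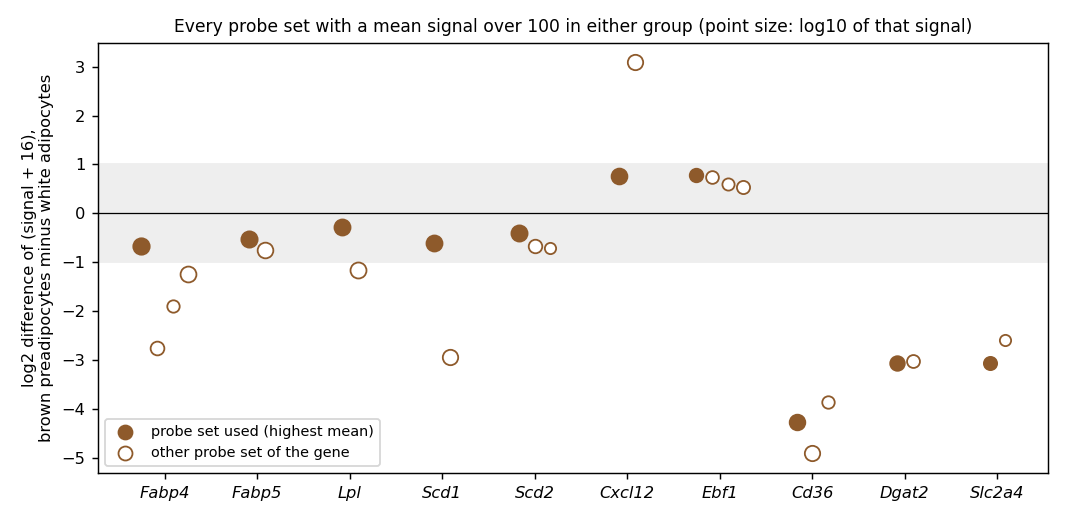
Log2 difference, brown preadipocytes minus white adipocytes, for each probe set of 10 fat cell genes with a mean signal over 100 in either group. Filled points are the probe set used for the gene, open points its other probe sets, point size follows log10 of the signal and the grey band marks 2-fold. The probe sets of Fabp4, Scd1 and Cxcl12 spread by over 2 log2 units, while those of Dgat2 and Ebf1 lie close together.

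Genes that build and coat lipid droplets were at or below the white level. Cidec, which fuses droplets into the large ones typical of white fat, had signals of 377, 375 and 296 in brown preadipocytes and 24185, 24848 and 22482 in white adipocytes. That is 1.46% of the white mean and a difference of -6.04 (SE 0.193, adjusted p = 2.12e-09), with no overlap. Brown adipocytes had 3834, 4052 and 3880.4 and white preadipocytes 3.18, 18.5 and 16.4. Plin4, a coat protein of nascent droplets, had 1407, 1468 and 1258 in brown preadipocytes, which overlapped the white preadipocyte range (1159, 1304 and 1125), and 12749, 13156 and 11220 in white adipocytes (-3.15, SE 0.0892, adjusted p = 9.35e-10). The caveola genes Cav1 and Cav2 were lower by 1.91 and 2.44 log2 units, and Hilpda, an inhibitor of Pnpla2, by 2.39. Of the 15 droplet genes tested, 11 were lower (73.3%, against 28.7% of all genes tested) and 4 were not called (Plin3, Plin5, Cideb and Aqp7). None was higher, a count that held at 0 with quantile normalization, equal array medians and scaling to the hybridization controls. The genes within 2-fold were Plin3, Cideb, Bscl2, Cavin1, Aqp7 and Rab18. White preadipocytes had means of 9118 for Cavin1, 5987 for Rab18 and 236 for Bscl2, against 9825, 5762 and 2573 in white adipocytes. Plin1 had no probe set of its own symbol and is not analysed here.

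In lipid synthesis Acly, Acaca, Scd1 and Scd2 were within 2-fold of the white level, and enzymes that assemble triglyceride ranged from moderately to far below it. Acly, which makes cytosolic acetyl-CoA, stood at 79.0% of the white mean (-0.34, adjusted p = 0.00252), although scaling to the hybridization controls turned its sign (0.03). Acaca, the first committed enzyme, stood at 70.0% and the desaturase Scd2 at 76.2%. White preadipocytes had means of 21537 for Scd2 and 7768 for Acly, against 34327 and 13396 in white adipocytes. For Scd1 and Acaca they had 5469 and 556, against 30919 and 1515. Fatty acid synthase (Fasn) had 5413, 5008 and 4405 in brown preadipocytes and 11897, 12540 and 11814 in white adipocytes, 40.9% of the white mean (-1.29, SE 0.0793, adjusted p = 2.07e-07). The elongase Elovl6 was higher, with 2438, 2542 and 2462 in brown preadipocytes against 412, 327 and 435 in white adipocytes (2.63, SE 0.105), and Elovl5 was higher by 0.38.

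Gpd1, which makes glycerol 3-phosphate, had 659, 548 and 461 in brown preadipocytes and 10623, 10109 and 7773 in white adipocytes (-4.06, SE 0.268). Its other probe sets with signals over 100 on all arrays of both groups gave -3.66 and -0.91. Dgat2, which adds the last fatty acid to make triglyceride, had 1290.5, 1010.2 and 1074 in brown preadipocytes and 9795, 9936 and 8729.7 in white adipocytes (-3.06, SE 0.0994, adjusted p = 2.34e-09). Dgat1, which can take the same step, differed by -1.99 (-0.78 on another probe set), and Gpam, the first acyltransferase of the route, by -1.19 (-0.35 on another probe set), close to Fasn. Agpat2, the acyltransferase that humans with a form of inherited fat loss lack, stood at 12.4% of the white mean. Thrsp, a regulator of fatty acid synthesis in fat and liver, stood at 2.62%, and Pck1, which feeds glycerol synthesis in fasting fat cells, at 1.08% with 67.9, 56.0 and 51.5 in brown preadipocytes against 6033, 5814 and 4404 in white adipocytes (-6.18, SE 0.16). Over this list of 22, 20 were lower (90.9%, against 28.7% of all genes tested), 2 were higher and the median difference was -1.59.

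Lipolysis genes were low as a group. Pnpla2, which starts the breakdown of triglyceride, had 598, 489 and 523 in brown preadipocytes and 6347, 6487 and 5980.2 in white adipocytes (-3.51, SE 0.0891, adjusted p = 4.49e-10). Lipe, the hormone-sensitive lipase that follows it, had 565, 479 and 437 in brown preadipocytes and 4840.4, 5338 and 4868 in white adipocytes (-3.31, SE 0.0918). Both stood under 10% of the white mean, and Abhd5, the coactivator of Pnpla2, at 17.3%. G0s2, an inhibitor of Pnpla2, had 4719, 4828 and 4540.3 in brown preadipocytes and 24080, 24926 and 22682 in white adipocytes (-2.34), while white preadipocytes had 3.24, 5.26 and 1.29. The receptors by which niacin and short-chain fatty acids restrain lipolysis were the most depleted: Hcar2 was below the 40th percentile on every brown preadipocyte array and at least 39.5-fold lower, and Ffar2 stood at 3.41%. In this list of 14, 11 were lower (78.6%, against 28.7% of all genes tested), 2 were higher and 1 (Gnai1) was not called. Gnai1 was counted within 2-fold at low signal, 23.6 ± 2.77 in brown preadipocytes and 28.4 ± 14.3 in white adipocytes (SD, n = 3 each). The higher ones were Prkar1a (0.87), a regulatory subunit of protein kinase A, and Npr3, the receptor that clears natriuretic peptides, with 6353, 5881 and 5787 in brown preadipocytes against 229, 167 and 187 in white adipocytes (4.85, SE 0.114, adjusted p = 3.2e-10). Npr3 was also low in brown adipocytes (294, 268 and 341) and white preadipocytes (318, 317 and 312), so the high signal belonged to the uninduced brown arrays among the 4 groups.

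Among 26 adipokines and other secreted proteins, 19 were lower (73.1%, against 28.7% of all genes tested), 4 were higher (15.4%, against 35.2%) and 3 were not called. Of the 26, 9 were under 10% of the white mean. Resistin (Retn) had 639, 602 and 580.5 in brown preadipocytes and 23304, 21591 and 19034 in white adipocytes (-5.09, SE 0.22, adjusted p = 1.59e-08). The apolipoprotein Apoc1, the chemoattractant Rarres2 and the acute-phase proteins Itih4 and Orm1 stood between 1.79% and 2.54% of the white mean. Lrg1, a secreted leucine-rich glycoprotein, had 2.05, 6.22 and 5.75 in brown preadipocytes, all below the 40th percentile, against 162, 178 and 161 in white adipocytes. It was at least 3.31-fold lower (adjusted p = 1.63e-09), as against a far larger signal in brown adipocytes (1004, 1086 and 1003). Leptin (Lep) was low in both groups, 2.97 ± 1.91 in brown preadipocytes and 17.1 ± 13.6 in white adipocytes, and gets no fold. It is counted among the 19 lower genes (-0.73, adjusted p = 0.0141, limma), although every array of both groups was below the 40th percentile.

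The 4 secreted genes that were higher in brown preadipocytes were Rbp4, Ccl2, Il6 and Cxcl12. Rbp4, the carrier of vitamin A, had 5485, 5456 and 5008 in brown preadipocytes and 50.6, 69.2 and 29.9 in white adipocytes (6.38, SE 0.189, adjusted p = 1.34e-09), and brown adipocytes had 20648, 21461 and 20246. Ccl2, which recruits monocytes, was higher by 4.79 (SE 0.144), with 4760.4 ± 514 in brown preadipocytes and 157 ± 26.5 in white adipocytes (SD, n = 3 each). Il6, an inflammatory cytokine, was higher by 2.45 (SE 0.268). Angiotensinogen (Agt) was close to the white level (72.5%), and its call (adjusted p = 0.0427) was lost under several alternatives, with adjusted p-values up to 0.67.

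In the list of insulin action, 7 of 20 genes (35%) were higher, a share near the 35.2% of all genes tested. Lower were 9 (45%, against 28.7% of all), and 11 (55.0%) lay within 2-fold, near the 50.3% of all. The insulin receptor (Insr) had 630.2, 541 and 522 in brown preadipocytes, close to white preadipocytes (575, 534 and 622), and 1919, 2595 and 2173 in white adipocytes (-1.95, SE 0.114, adjusted p = 1.44e-07). Slc2a4, the glucose transporter that insulin moves to the cell surface, had 532, 397 and 277 in brown preadipocytes and 3308, 3360.2 and 3377 in white adipocytes (-3.05, SE 0.391, adjusted p = 5.39e-05). Every brown preadipocyte array lay below the white range. Hk2, the hexokinase of insulin-sensitive tissues, stood at 6.13% of the white mean and Gys1, which makes glycogen, at 17.6%. The members within 2-fold were Irs1, Irs2, Akt1, Pik3r1, Pik3ca, Trip10, Tbc1d1, Snap23, Vamp2, Grb14 and Cblb, adaptors, kinases and vesicle proteins of the pathway. Akt2 (-0.91), the kinase by which insulin drives glucose uptake, and Tbc1d4 (-0.68), its substrate, were lower and their intervals ran beyond 2-fold. Grb10, an adaptor that restrains insulin and growth factor receptors, stood alone with 6172, 5639 and 5211 in brown preadipocytes against 32.7, 47.1 and 36.1 in white adipocytes (6.71, SE 0.158). The list's median of -0.14 turned to 0.22 with scaling to the hybridization controls.

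**Figure D3:**
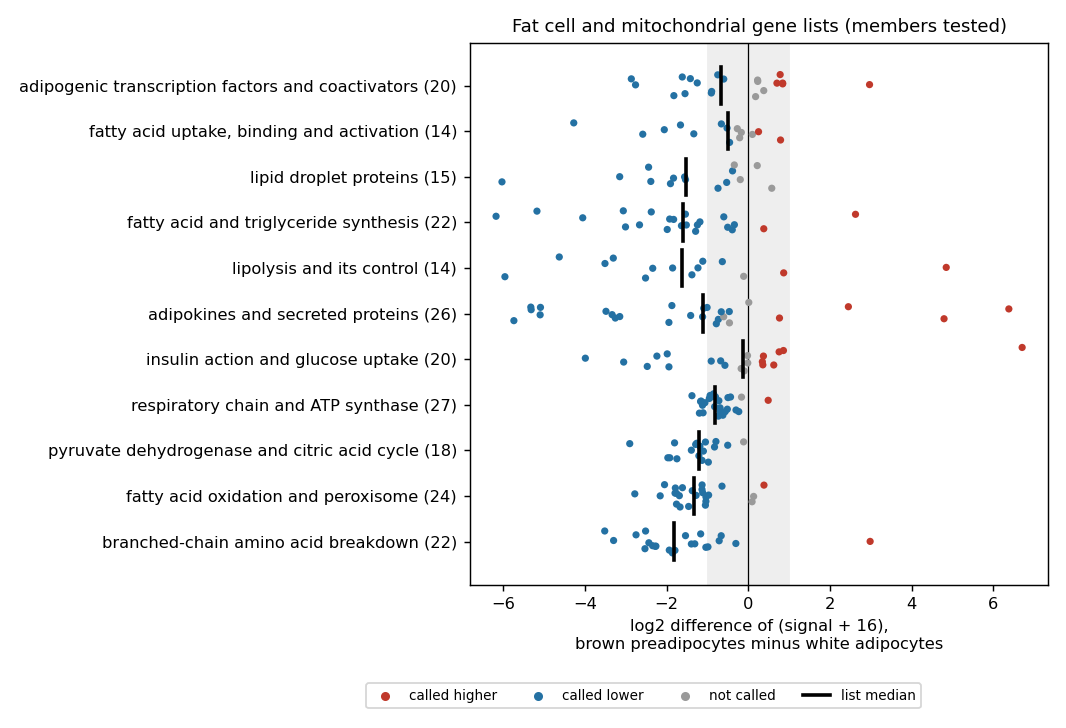
Log2 difference of each tested member of 7 fat cell lists and 4 mitochondrial lists (points, coloured by call; numbers in brackets are members tested; bar, list median; grey band, 2-fold). List medians run from -0.14 (insulin action) to -1.83 (branched-chain amino acid breakdown), and the respiratory chain points stay between -1.38 and 0.49.

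Mitochondrial genes were lower in brown preadipocytes in nearly every case, by small amounts for the respiratory chain and by larger ones for the pathways that feed it. Of 27 respiratory chain and ATP synthase genes, 25 were lower (92.6%, against 28.7% of all genes tested), 1 (Atp5o) was higher and 1 (Cox6c) was not called. None was lower by 4-fold and the median difference was -0.80. Within 2-fold lay 16 (59.3%, against 50.3% of all), a count of 10 with equal array medians and of 24 with scaling to the hybridization controls. In pyruvate dehydrogenase and the citric acid cycle 17 of 18 were lower (median -1.20), led by Pcx, which replenishes oxaloacetate (-2.91, SE 0.0614). Fatty acid oxidation had 21 of 24 lower (median -1.33), led by Pex11a, which multiplies peroxisomes (-2.78), while the gate-keeping Cpt1a was within 2-fold (0.13, adjusted p = 0.232). Breakdown of branched-chain amino acids, a carbon source for fat synthesis in mature adipocytes, had 21 of 22 lower and the lowest median of these lists, -1.83. Of its members 9 were lower by at least 4-fold (40.9%, against 3.53% of all genes tested). With scaling to the hybridization controls these medians were -0.44, -0.84, -0.96 and -1.47 in the same order, so the direction held and the respiratory chain came nearest to no difference.

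Forms of a protein that muscle, brown fat or insulin-sensitive tissue prefers were set beside the general form of the same protein, each by its own difference. Cox7a1, a respiratory subunit of muscle and brown fat, had 78.3, 92.5 and 117 in brown preadipocytes and 1559.8, 1518 and 1441 in white adipocytes (-3.78, SE 0.123), whereas the general form Cox7a2 differed by -0.43. Cox8b was below the 40th percentile in brown preadipocytes (6.82, 2.41 and 27.1) against 5338, 5533 and 4324 in white adipocytes, at least 91.4-fold lower, and its general form Cox8a differed by -0.77. Cox6a2 differed by -2.82 and Cox6a1 by -0.25, which turned to 0.12 with scaling to the hybridization controls. Hk2 differed by -3.99 and the general hexokinase Hk1 by -0.20 (95% interval -0.43 to 0.03), which turned to 0.16 under that scaling. The aminotransferases of branched-chain amino acids went in opposite directions: mitochondrial Bcat2 was lower (-3.52, 62.0 ± 3.75 in brown preadipocytes and 878 ± 33.1 in white adipocytes) and cytosolic Bcat1, common in growing cells, was higher (2.98, 684 ± 77.0 in brown preadipocytes and 73.6 ± 20.7 in white adipocytes). Phosphofructokinase and the ADP/ATP carriers did not follow the other pairs: the muscle form Pfkm was within 2-fold (-0.21, turned to 0.15 with scaling to the hybridization controls) and Pfkp was lower (-3.10), and Slc25a4, the muscle and heart carrier, was within 2-fold (0.11) with Slc25a5 lower (-0.97). The difference between members of a pair was not tested.

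**Figure D4:**
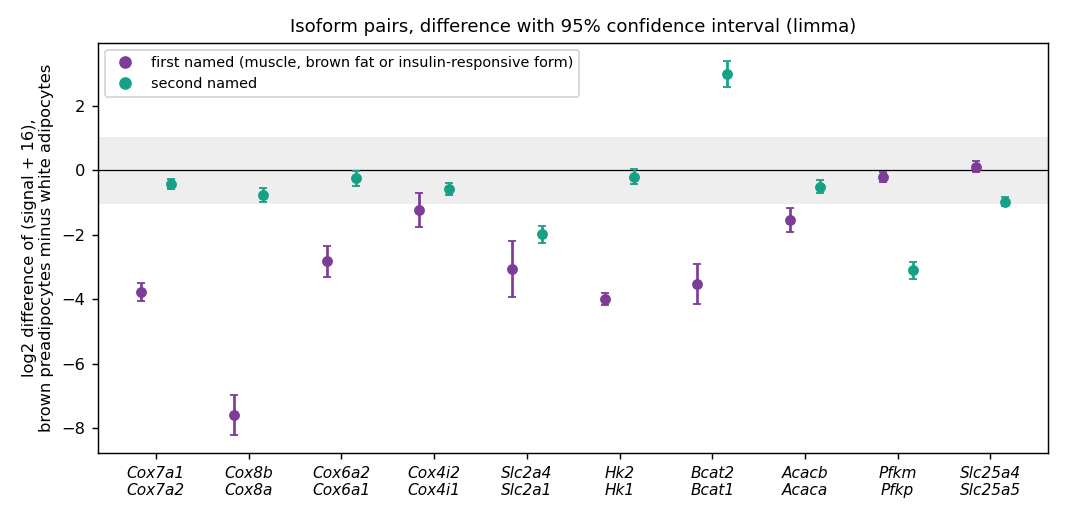
Log2 difference with its 95% confidence interval for 10 isoform pairs. Except for Cox4i2, the form named first is the muscle, brown fat or insulin-responsive one. The form named first lies below the other in 8 pairs, including Cox4i2, and above it for Pfkm and Slc25a4 (grey band, 2-fold). Cox4i2 had low signals, 30.3 ± 6.93 in brown preadipocytes and 94.1 ± 29.7 in white adipocytes (SD).

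Of the brown lineage factors, Zic1, Prdm16 and Ebf2 were higher in brown preadipocytes, Lhx8 was at low signal in both groups, and Ucp1 was not detected above low signal in either. Zic1, a factor that marks the brown lineage, had 4396, 4134 and 5092 in brown preadipocytes and 3.78, 7.89 and 2.18 in white adipocytes (7.79, SE 0.153), at least 84.9-fold higher. Prdm16, which commits precursors to brown fat, had 407, 404 and 474 in brown preadipocytes and 0.800, 2.84 and 1.64 in white adipocytes, at least 8.28-fold higher (adjusted p = 7.54e-09). This rests on its brightest probe set. The others had means of 60.6, 65.8 and 31.5 in brown preadipocytes and 3.74, 55.8 and 13.7 in white adipocytes, differences of 1.93, 0.15 and 0.78. Lhx8, another factor linked to the brown lineage, did not pass the filter on low signals, with 2.04 to 4.96 in brown preadipocytes and 5.54 to 19.8 in white adipocytes. Ucp1, the uncoupling protein, lay below the 40th percentile on all arrays of both groups, with 30.5, 22.8 and 1.66 in brown preadipocytes and 8.36, 5.28 and 4.79 in white adipocytes, which overlapped (0.52, adjusted p = 0.188). Without brown preadipocyte replicate 3 the same difference was 0.94 (adjusted p = 0.00398), a change of call among signals below the 40th percentile. Over the 19 thermogenic and brown fat genes, 5 were higher (26.3%, against 35.2% of all genes tested), 10 were lower (52.6%, against 28.7%) and 4 were not called. The higher ones were Zic1, Prdm16, Ebf2, Ppargc1a and Ppara, the last at 64.8 ± 10.6 in brown preadipocytes and 42.1 ± 10.5 in white adipocytes. The 10 lower genes included Cox8b, Cox7a1, Cidea, Kcnk3, a potassium channel, and Chchd10, a mitochondrial protein.

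**Figure D5:**
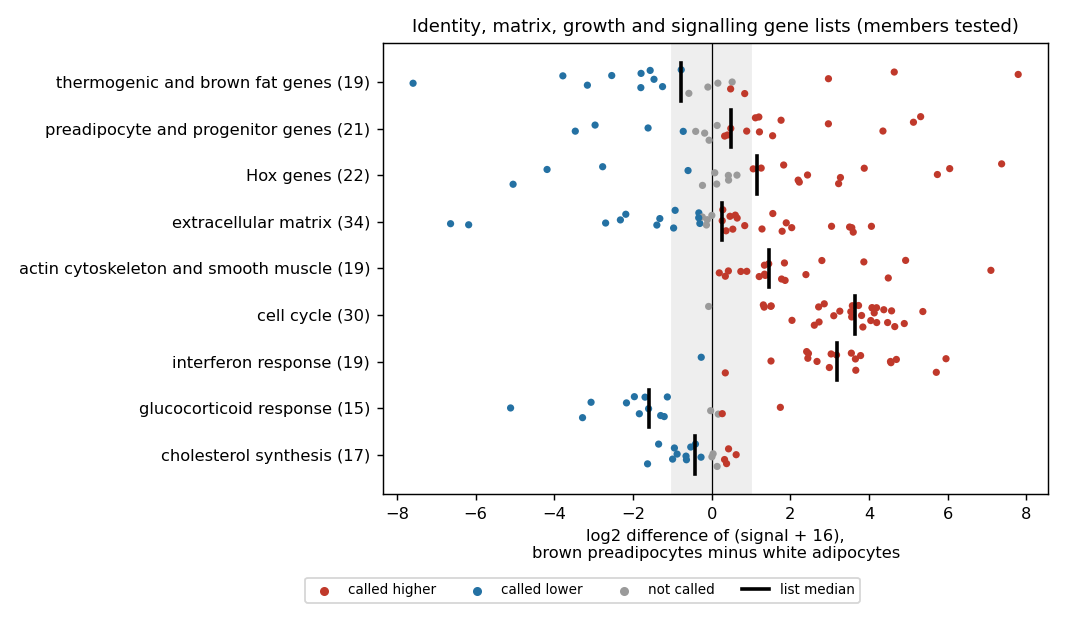
Log2 difference of each tested member of 9 further lists (points, coloured by call; bar, list median; grey band, 2-fold). The medians of cell cycle (3.66) and interferon response (3.17) lie far to the right and that of glucocorticoid response (-1.60) to the left, while thermogenic, Hox and matrix genes spread in both directions.

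Genes of the preadipocyte state were more often higher than lower in brown preadipocytes. Of 21 tested, 13 were higher in brown preadipocytes (61.9%, against 35.2% of all genes tested), 4 were lower (19%, against 28.7%) and 4 were not called. Dlk1, the classical inhibitor of adipogenesis that marks preadipocytes, had 964, 1014 and 965 in brown preadipocytes and 827, 702 and 808 in white adipocytes (0.33, adjusted p = 0.0103), within 2-fold, while white preadipocytes had 6151, 7369 and 5836. Its direction was lost with another choice of probe set, -0.25 with the mean of its probe sets and -0.83 with less specific probe sets left out. Pdgfra, a receptor of mesenchymal progenitors, was higher by 0.89 (SE 0.0964, adjusted p = 1.51e-05), with 5514 ± 349 in brown preadipocytes and 2969.7 ± 269 in white adipocytes. The inhibitors of differentiation Id2 and Id3 showed the largest rises of the list (5.31 and 5.13), with Id2 at 3145, 3025 and 3454 in brown preadipocytes against 56.1, 66.7 and 73.2 in white adipocytes. Thy1, a fibroblast surface protein, and Ddit3, a stress-induced factor that blocks C/EBP proteins, were lower (-3.47 and -2.96).

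Hox genes, which record the position along the body axis from which cells came, differed in both directions. Of 22 tested, 12 were higher (54.5%, against 35.2% of all genes tested), 4 were lower (18.2%, against 28.7%) and 6 were not called. Hoxc8 had 3779, 3811 and 4877 in brown preadipocytes and 7.75, 20.0 and 2.33 in white adipocytes, at least 77.5-fold higher, and Hoxc4, Hoxc5, Hoxc6, Hoxc9 and Hoxc10 were higher as well. The 4 lower genes were Hoxd8 (-5.05, 44.2 ± 20.2 in brown preadipocytes and 1894 ± 66.1 in white adipocytes), Hoxd9 (-4.18), Hoxd3 and Hoxa7.

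The extracellular matrix list of 34 had 18 genes higher (52.9%), 12 lower (35.3%) and 14 within 2-fold (41.2%). Over all genes tested these shares were 35.2%, 28.7% and 50.3%. The small proteoglycans Dcn and Lum were low in brown preadipocytes: Dcn had 29.2, 62.7 and 58.6 in these cells against 7410.0, 6008 and 5805 in white adipocytes (-6.64, SE 0.209) and Lum differed by -6.18 (SE 0.396). Lower too were the basement membrane genes Col4a2 (-2.18) and Lama4 (-2.32). Thbs1 (4.06), Col12a1 (3.60), Col8a1 (3.56) and Timp3 (3.51), which encode a matrix glycoprotein, 2 collagens and an inhibitor of matrix proteases, were higher. The fibrillar collagens Col1a2 and Col3a1 and the proteoglycan Bgn were lower by small amounts that turned to 0.07, 0.04 and 0.04 with scaling to the hybridization controls.

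All 19 actin cytoskeleton and smooth muscle genes tested were higher in brown preadipocytes (median 1.45, against 0.05 for all genes tested and 35.2% of all genes called higher). Quantile normalization left 17 called and equal array medians 15, and Vcl turned to -0.07 with the mean of its probe sets. Ccn2, a target of tension signalling, had 2532, 2929 and 3233 in brown preadipocytes and 1.39, 5.22 and 9.66 in white adipocytes (7.10, SE 0.181, at least 54.2-fold higher), and the smooth muscle genes Myl9 and Tagln were higher by 4.93 and 3.87.

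Cell division genes had the highest median of the 24 lists. Of 30 tested, 29 were higher (96.7%, against 35.2% of all genes tested), 25 of them by at least 4-fold (against 5.9% of all). The median difference of the list was 3.66. Mcm5, a subunit of the replicative helicase, had 9191, 9343 and 8459 in brown preadipocytes and 195, 206 and 205 in white adipocytes (5.37, SE 0.0628, adjusted p = 2.77e-11). White preadipocytes had 7008, 6372 and 6693 and brown adipocytes 8526, 8325 and 8748, so white adipocytes were the group with the low signal. Cdc20, which drives exit from mitosis, was higher by 4.57 (SE 0.07) with 11220, 11544 and 10016 in brown preadipocytes against 465, 446 and 418 in white adipocytes, and Ccnb2, a mitotic cyclin, by 4.47. Ccnd1, the cyclin that answers growth factors, was the exception, within 2-fold and not called (-0.08, adjusted p = 0.524).

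Interferon response genes were high in the uninduced brown cells. Of 19 tested, 18 were higher (94.7%, against 35.2% of all genes tested), 16 of them by at least 4-fold (against 5.9% of all). The other 1, B2m, was lower (-0.26, turned to 0.10 with scaling to the hybridization controls). Ifit1, which binds foreign RNA, had 6798, 6282 and 5341 in brown preadipocytes and 75.4, 83.1 and 89.8 in white adipocytes (5.96, SE 0.175, adjusted p = 1.28e-09). Brown adipocytes had 129, 215 and 148 and white preadipocytes 57.5, 49.0 and 38.5, so the high Ifit1 signal belonged to the brown preadipocyte arrays among the 4 groups. Oasl2 was at least 23.1-fold higher, Usp18, a brake on interferon signalling, was higher by 4.55 (SE 0.28), and Rsad2 and Oas1a, antiviral enzymes, by 4.70 and 4.56.

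Promoters from both gene groups are shown because their members moved together. Sequences come from RefSeq (GRCm38.p6), from the 250 bases before to the 50 bases after each annotated start, which were found for 11026 of the 13745 genes tested. The core of the interferon-stimulated response element, here GAAA followed by any 2 bases and another GAAA on either strand, was found in 9 of the 16 interferon promoters (56.2%) and in 3.66% of all 11026. The promoter of Oasl2 had no core, and that of B2m, the lower member, had it. Only promoters with the core are shown. The 4 stretches shown lie before the starts of their genes, are written 5′ to 3′ on the gene's strand and carry the core, or its reverse complement with TTTC in place of GAAA, in capitals: Ifit1 at chr19:34640765-34640833 (plus strand), Rsad2 at chr12:26456543-26456592 (minus strand), Oas1a at chr5:120907526-120907565 (minus strand) and Ifit3 at chr19:34583353-34583436 (plus strand).
Ifit1: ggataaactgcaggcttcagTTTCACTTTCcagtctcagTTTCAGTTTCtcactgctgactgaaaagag
Rsad2: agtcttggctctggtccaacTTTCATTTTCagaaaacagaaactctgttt
Oas1a: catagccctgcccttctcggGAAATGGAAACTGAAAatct
Ifit3: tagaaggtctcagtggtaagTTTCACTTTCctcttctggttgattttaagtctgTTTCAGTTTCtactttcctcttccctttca

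In the 23 cell cycle promoters found, the cell cycle homology region TTTGAA was present in 39.1% (14.4% of all 11026) and the CCAAT box in 78.3% (42.5% of all), both strands counted. The promoter of Mcm5 had CCAAT but not TTTGAA. Only promoters with both motifs are shown. The stretches of Cdc20 (chr4:118437344-118437416), Ccnb2 (chr9:70421555-70421741) and Mki67 (chr7:135716452-135716587), all on the minus strand, whose products act in mitosis or mark dividing cells, have both motifs in capitals (ATTGG is CCAAT on the other strand).
Cdc20: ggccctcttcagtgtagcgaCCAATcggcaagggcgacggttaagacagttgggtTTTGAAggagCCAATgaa
Ccnb2: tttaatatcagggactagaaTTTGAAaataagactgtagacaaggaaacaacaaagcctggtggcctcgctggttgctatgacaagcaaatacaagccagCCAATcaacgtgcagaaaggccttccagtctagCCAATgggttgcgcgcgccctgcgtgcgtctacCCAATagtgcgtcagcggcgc
Mki67: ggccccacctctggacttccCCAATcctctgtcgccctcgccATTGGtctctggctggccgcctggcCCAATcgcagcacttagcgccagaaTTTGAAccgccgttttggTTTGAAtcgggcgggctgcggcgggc

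In the fat cell genes, CCAAT was present in 41.2% of the 34 promoters found for fat genes within 2-fold and in 44.0% of the 25 found for those lower by at least 4-fold. The exact repeat that PPAR and RXR bind, AGGTCA followed by any base and another AGGTCA, was in none of these promoters and in 0.0544% of all. With only 6 matches among all 11026 promoters, it is too rare for its absence here to be informative. A match is a string of letters, and its use was not measured.

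Of 15 glucocorticoid-responsive genes tested, 11 (73.3%) were lower in brown preadipocytes, against 28.7% of all genes tested (list median -1.60). Another 2 were higher (Errfi1, 1.75, and Sgk1, 0.27) and 2 (Fkbp5 and Per1) were not called. The count higher was 4 with scaling to the hybridization controls and 1 with equal array medians. Hsd11b1, which regenerates active glucocorticoid inside fat cells, had 464 ± 33.6 in brown preadipocytes and 16538 ± 932 in white adipocytes (SD, n = 3 each; -5.11, SE 0.221). Glul, glutamine synthetase (-3.28), and Zbtb16, a zinc finger factor (-3.06), followed. Fkbp5, a usual sentinel of glucocorticoid exposure, was within 2-fold (-0.02) and turned to 0.34 with scaling to the hybridization controls. Of 17 cholesterol synthesis genes, 12 (70.6%) lay within 2-fold, against 50.3% of all genes tested, while 4 were higher and 10 (58.8%) were lower, against 28.7% of all genes lower. Their calls shifted to 7 higher and 7 lower with scaling to the hybridization controls and to 2 higher and 10 lower with equal array medians.

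The largest differences among all genes tested lay partly outside these lists. Lower in brown preadipocytes were the carboxylesterases Ces1f (at least 180.3-fold) and Ces1d (at least 53.9-fold), which hydrolyse lipid esters, 2610528A11Rik, Cox8b, Egln3, an oxygen-sensing hydroxylase (-6.88), Dcn, S100a8, a calcium-binding protein of myeloid cells (-6.57), and Pck1. Higher were Efemp1, a matrix glycoprotein, with 12442, 11995 and 15761 in brown preadipocytes against 1.30, 2.45 and 6.93 in white adipocytes (at least 249-fold), Rspo2, which amplifies Wnt signals (8.09), Zic1, Kng1, Il1rn, the interleukin 1 receptor antagonist (7.64), Hoxc8, Ccn2 and Mme, a membrane peptidase (at least 66.9-fold).

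Markers of other cell types were mostly at low signal. For comparison with the calls below, 63.9% of all genes tested were called. Of 10 macrophage markers, 7 were tested and 1 was called, Lyz2, with 46.5 ± 4.48 in brown preadipocytes and 492 ± 41.6 in white adipocytes (-3.02), and the summed signal of the tested markers was 479.6 to 622 in brown preadipocytes and 1003 to 1093 in white adipocytes. Ptprc, Itgam and Aif1, which define blood cells and macrophages, did not pass the filter on low signals. Of 8 endothelial markers 2 were tested, and Egfl7 was higher (2.41), with a summed signal of both of 419.7 to 512 in brown preadipocytes and 44.3 to 149 in white adipocytes, while Pecam1 stayed between 2.50 and 7.91 in brown preadipocytes and between 3.75 and 5.25 in white adipocytes. Of 12 skeletal muscle markers 5 were tested, with Des and Ckm lower (-2.35 and -0.81, the second turning to 0.0859 with the mean of its probe sets) and Mylpf higher (0.99), and a summed signal of all 5 of 380.5 to 451 in brown preadipocytes and 984 to 1021 in white adipocytes, and Myog and Myf5 did not pass the filter. The part of these markers in the other differences was not tested.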

How the data were processed

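RNA of 12 samples was measured on Affymetrix Mouse Genome 430 2.0 arrays after labelling with a 3′ in vitro transcription kit, per the labels' protocols. The deposited intensity values, 1 for each of 45101 probe sets and array on a linear scale, come from the authors' run of Expression Console (Affymetrix), which the submitters' processing notes name. Its version and summary method were not given in the sources used here, and every array has the same trimmed mean in the deposited values. Scanner files were not used here, so background and saturation were not examined. Of the probe sets, 34958 carry 1 gene symbol and were used, 932 carry several and 9211 are unnamed in the annotation at hand; together they cover 18193 genes.

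For each gene the probe set of highest mean over the 12 arrays was kept, genes above the 40th percentile of signal (32.9 to 41.2) on at least 3 of the 12 arrays were tested, and log2(signal + 16) was fitted with limma 3.58.1 in R 4.3.3 (4 group means, eBayes, Benjamini-Hochberg adjustment over 13745 genes), which leaves 8 residual degrees of freedom. A fold change on this scale understates the change of low signals. Where a gene was below the 40th percentile on every array of a group, its fold is given as "at least", against that percentile. The fit was tested on simulated data. The precision is limited by the 3 arrays per group.

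The members and gene lists were chosen with earlier results of these data known. A set of genes was named by rule: the main fat cell genes, the 8 largest called differences in each direction, up to 4 called members with the largest difference and up to 3 within 2-fold with the highest white adipocyte signal in each list, and both members of each isoform pair. Other genes named were chosen after their values were seen. Of 517 list entries, 484 matched a measured gene. Promoter sequences came from RefSeq. The titles number the arrays of each group 1 to 3. Deviations from the group means of same-numbered arrays of the 2 groups compared had correlations of 0.0276, 0.0283 and 0.0668. Those of arrays with different numbers ran from -0.0455 to 0.0162, below each of these small values. Whether same numbers mean shared handling was not tested, and the main fit did not pair the samples. Alternatives covered the pseudocount, scaling, filter, choice of probe set, variance model, arrays fitted, replicate block and omission of each array.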

Additional observations from a re-analysis of the deposited data

How the results depend on the processing

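The counts of genes higher (4840), lower (3938) and within 2-fold (6908) moved by at most 1.5 times under all alternatives but 1. Scaling to the hybridization controls left 2484 genes lower and 6701 higher, so that 73.0% of called genes were higher, against 55.1% as deposited, 47.4% with equal array medians and 49.9% with quantile normalization. The median of all genes shifted by 0.325 and -0.124 under the scaling to controls and the equal medians. Leaving out each array in turn gave 4550 to 4714 genes higher, 3688 to 3786 lower and 6454 to 6526 within 2-fold. The replicate block gave 4803 higher, 3913 lower and 6897 within 2-fold. The labels do not say whether same-numbered arrays shared anything beyond the number. The 99% interval left 5684 genes within 2-fold and a pseudocount of 64 gave 9423. The 7 fat cell lists together had 74 to 95 members lower, 19 to 26 higher and 33 to 51 within 2-fold. With less specific probe sets left out, which removes genes, 7 were lower among transcription factors, 7 among droplet genes and 6 in cholesterol synthesis. Signs of 20 named genes turned with scaling to the hybridization controls, among them those called in either setting, Acly (0.0253), Bckdk (0.056), Col3a1 (0.0425), Col1a2 (0.0684), Bgn (0.0393), Ccnd1 (0.28), B2m (0.10), Fkbp5 (0.34) and Pfkm (0.15), and, called in neither, Lpl (0.0976), Cox6a1 (0.12), Hk1 (0.16) and Pik3r1 (0.19). The medians of the macrophage and muscle markers turned to 0.17 and 0.14. Signs of called genes turned with the mean of all probe sets for Dlk1 (-0.25), Metrnl (0.14), Vcl (-0.0737) and Ckm (0.0859), and with less specific probe sets left out for Dlk1 (-0.83) and Metrnl (0.48). The cause was not tested. Signals below the 40th percentile and those near the top of the range limit what differences can be read, and Ucp1 and Lep were below that percentile in both groups.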
